A study of Rattus norvegicus with 6 samples.

Results

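The genes described here are 10 genes of bone mineral matrix and of the cells that make it, taken by symbol from the deposited table of raw counts: Ibsp, Spp1, Dmp1, Mepe, Phex, Bglap, Sp7, Ifitm5, Smpd3 and Dlx5. All 10 were found, each once, among 26981 features, and all 10 passed the filter on low counts that left 16447 genes for testing. The loaded group and the control group were wild-type male Sprague-Dawley rats, 6 weeks old at the start, with 3 libraries of right knee articular cartilage in each group. In the loaded rats the right knee and ankle were compressed along the limb under anaesthesia every 2 days, and the group sequenced is given in the study design as the one with a 20 N peak for 4 weeks. Each session ran 40 cycles of 10 s, with 9 s at a 5 N base and 0.5 s at the peak. The control rats received no load. The labels do not say whether each library is a separate animal or a pool, and p-values here reflect differences among libraries, which may in part be technical.

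Bone forms when osteoblasts lay down a scaffold of type I collagen and then direct calcium phosphate crystals into it. The SIBLING proteins (small integrin-binding ligand N-linked glycoproteins) are acidic, heavily phosphorylated secreted proteins of that mineral front. Bone sialoprotein (Ibsp) is known to promote crystal formation, osteopontin (Spp1) to inhibit crystal growth and to anchor cells, and Dmp1 and Mepe are products of osteocytes, the osteoblasts that have become buried in bone. Mineralised matrix is also made at the deep face of articular cartilage, in the calcified zone that joins it to the subchondral bone.

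Sequencing depth was 28435307 to 33616096 counts in the loaded libraries and 34527264 to 40332904 counts in the control libraries. The libraries held RNA of several tissues. Defining chondrocyte markers, all 14 of which passed the filter, took 0.286% to 0.313% of counts in loaded and 0.197% to 0.213% in control libraries, and erythroid markers took 13.0% to 14.1% and 13.7% to 14.8%. In bulk RNA a change in the number of cells of a type and a change in RNA per cell cannot be told apart.

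Bone matrix genes were higher in the loaded knees with 1 exception. With edgeR's quasi-likelihood test and a Benjamini-Hochberg adjusted p under 0.05 as the threshold, 9 of the 10 genes rose and none fell. Among all genes tested 35.8% passed, 17.9% as rises and 18.0% as falls. By the same test without adjustment 0 of the 10 were lower at p under 0.05, and DESeq2 and limma-voom also called 0 lower. The median log2 fold change, loaded over control, was 0.65 for the 10 genes and 0.00 for all genes tested, whose quartiles were -0.24 and 0.32. In 9 genes every loaded library lay above every control library, an order that 23.9% of all genes showed. The changes ranged widely, from a 2.90-fold rise of Ifitm5 to a level of Mepe that missed the threshold, and 4 of the 10 rose by at least 2-fold. The sum over the 10 genes was 2095, 2152 and 2043 CPM (counts scaled to a common total, on library sizes scaled with TMM) in loaded libraries, against 1525, 1431 and 1504 CPM in controls.

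**Figure D1:**
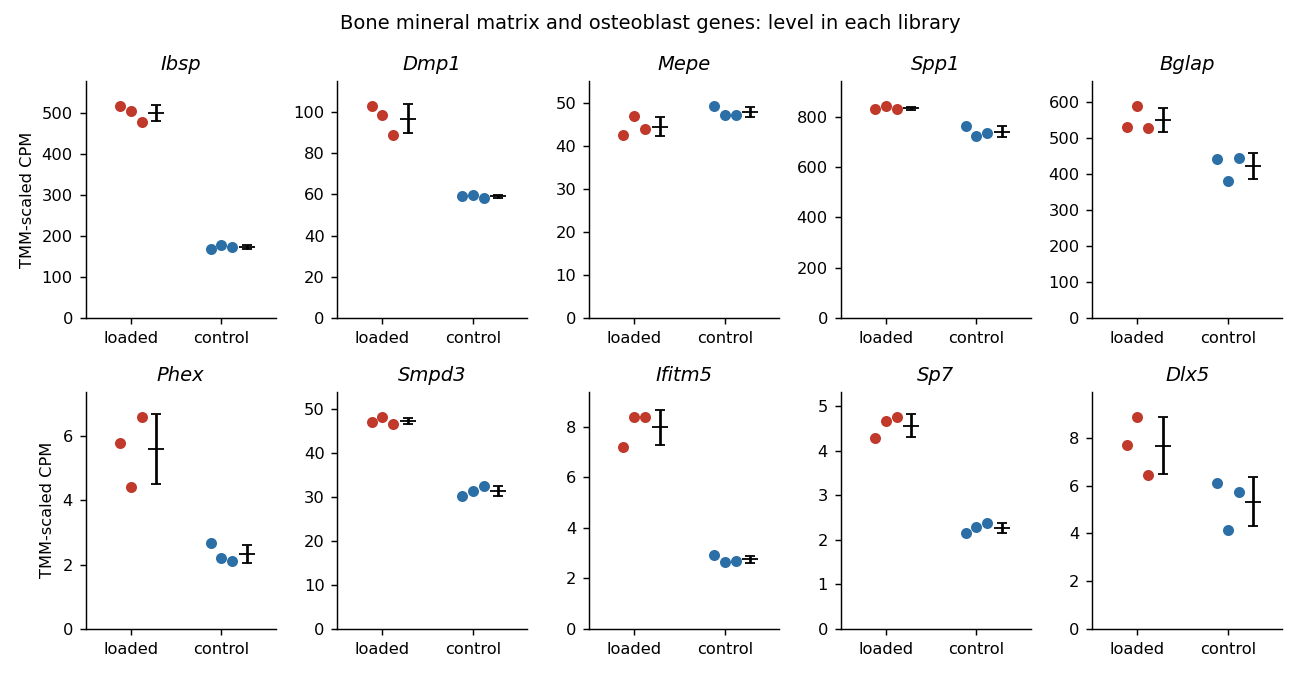
Level of each of the 10 genes in every library, in TMM-scaled CPM on axes that start at 0, with loaded libraries in red at the left and control libraries in blue at the right of each panel. Bars give the mean ± SD (n = 3). In every panel but that of Mepe the loaded points lie above the control points.

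Ibsp showed the largest change of the SIBLING genes. It stood at 516, 505 and 479 CPM in loaded libraries, against 168, 179 and 172 CPM in controls. The groups lay far apart compared with the spread inside either group, and only 2.44% of all genes tested had a larger fitted rise. The log2 fold change of Ibsp (ENSRNOG00000002158) was 1.53 ± 0.043 (SE), a 2.88-fold rise with an adjusted p of 1.51e-12 (edgeR). Dmp1 (ENSRNOG00000002167), whose product regulates mineralisation and, in mouse and human, phosphate through the hormone FGF23, had 103, 98.5 and 88.8 CPM in loaded libraries, against 59.1, 59.9 and 58.4 CPM in controls. Its loaded libraries varied more than its controls (coefficient of variation 7.32% and 1.23%), yet all were above all controls. The rise was 0.71 ± 0.057 on the log2 scale, or 1.63-fold (adjusted p = 1.98e-07, edgeR).

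Spp1 and Mepe changed far less. Spp1 (ENSRNOG00000043451), which macrophages, osteoclasts and hypertrophic chondrocytes make as well as osteoblasts, had 831, 841 and 830 CPM in loaded libraries, against 764, 722 and 736 CPM in controls. The difference was small but larger than the spread, at 0.17 ± 0.034 on the log2 scale, 1.13-fold (adjusted p = 0.00111, edgeR), and 34.4% of all genes had a larger fitted rise. Mepe (ENSRNOG00000002154), a SIBLING gene named for its matrix phosphoglycoprotein, had 42.6, 47.0 and 43.8 CPM in loaded libraries, against 49.2, 47.1 and 47.2 CPM in controls. Loaded library 2 (47.02 CPM) and the lowest control (47.08 CPM) were nearly level. In TMM-scaled CPM every loaded library lay below every control, an order that 23.9% of all genes showed. That order depends on the scaling. In the authors' FPKM, described below and scaled without TMM, the groups overlapped (25.9 to 27.1 in loaded and 25.8 to 27.0 in control libraries). The log2 fold change of Mepe was -0.10 ± 0.059 (adjusted p = 0.188, edgeR), and its 95% interval ran from -0.22 to 0.01, an interval that holds no rise as large as that of Spp1.

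The make-up of the SIBLING transcripts differed between the groups. Measured per gene length as the authors' FPKM (fragments scaled by transcript length and library size), Ibsp made up 29.8%, 29.1% and 28.4% of the summed level of the 4 genes in loaded libraries, against 13.2%, 14.6% and 13.9% in controls. The share of Spp1 was 63.1% to 64.8% in loaded libraries, against 77.4% to 79.0% in controls. Dmp1 took 3.73% to 4.19% in loaded libraries, against 3.29% to 3.46% in controls, and Mepe took 2.90% to 3.19%, against 4.46% to 4.53%. None of these 4 shares overlapped between the groups, but as parts of the same sum they are not separate results. A share of a sum moves with every gene in it, so the lower share of Spp1 stood beside a higher CPM. The lower share of Mepe stood beside a nearly equal mean level, 26.4 FPKM in loaded and 26.5 FPKM in control libraries.

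**Figure D2:**
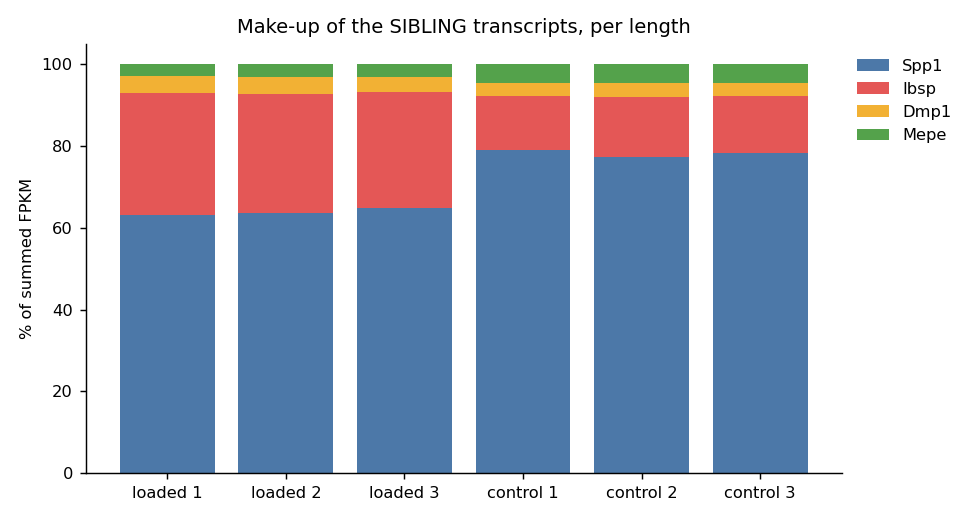
Share of each SIBLING gene in the summed FPKM of Ibsp, Spp1, Dmp1 and Mepe, as a percentage on the vertical axis, in the 3 loaded libraries and then the 3 control libraries. The Ibsp segment measures 28.4% to 29.8% in loaded and 13.2% to 14.6% in control libraries.

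The SIBLING genes lie side by side on rat chromosome 14, in the order Spp1, Mepe, Ibsp, Dmp1 and Dspp among protein-coding genes of the RefSeq annotation of GRCr8, with Pkd2 and Sparcl1 as outer neighbours. Genes of this locus did not move as a block. Dspp, which encodes the matrix protein of dentine, had 0 counts in all 6 libraries, and at this depth 0 counts leave room for 0.0744 to 0.106 CPM, depending on the library. Sparcl1, a matricellular protein gene related to Sparc, fell to 44.0, 45.6 and 45.4 CPM in loaded libraries, against 78.1, 77.6 and 74.0 CPM in controls (-0.77 ± 0.051 log2, adjusted p = 2.48e-08, edgeR). Of 11 tested genes of the locus and its surroundings, 3 rose and 3 fell, and the 3 that rose were Ibsp, Dmp1 and Spp1 themselves. Across all genes tested 17.9% rose and 18.0% fell. The other falls were Hsd17b11, by 0.26 ± 0.062, and Nudt9, by 0.18 ± 0.064 (adjusted p = 0.0369, edgeR), whose call was lost in 9 of 16 alternatives.

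Promoter sequence was at hand in RefSeq's GRCr8 table for 6 of the 10 genes (Ibsp, Spp1, Dmp1, Mepe, Bglap and Ifitm5). Each window runs from 250 bases before to 50 bases after the annotated start. For Spp1 and Dmp1 that start is not at the edge of the annotated gene, so their windows may miss the promoter. The 3 shown are those of the SIBLING gene with the largest rise, of the one with no call and of the osteocalcin gene. All 3 are on the minus strand, at chr14:5757193-5757492 for Ibsp, chr14:5736809-5737108 for Mepe and chr2:176137269-176137568 for Bglap, and are written 5′ to 3′ with matches to the searched motifs in capitals.
Ibsp: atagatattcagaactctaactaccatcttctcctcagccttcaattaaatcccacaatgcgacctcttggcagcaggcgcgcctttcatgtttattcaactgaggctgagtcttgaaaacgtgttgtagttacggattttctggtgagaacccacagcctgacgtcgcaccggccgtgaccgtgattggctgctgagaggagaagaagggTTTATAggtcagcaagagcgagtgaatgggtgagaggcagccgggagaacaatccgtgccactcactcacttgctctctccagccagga
Mepe: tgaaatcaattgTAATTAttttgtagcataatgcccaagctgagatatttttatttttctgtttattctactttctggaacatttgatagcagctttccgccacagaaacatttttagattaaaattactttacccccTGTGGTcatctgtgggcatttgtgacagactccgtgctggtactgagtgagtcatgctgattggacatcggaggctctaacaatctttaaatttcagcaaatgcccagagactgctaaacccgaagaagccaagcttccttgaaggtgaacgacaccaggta
Bglap: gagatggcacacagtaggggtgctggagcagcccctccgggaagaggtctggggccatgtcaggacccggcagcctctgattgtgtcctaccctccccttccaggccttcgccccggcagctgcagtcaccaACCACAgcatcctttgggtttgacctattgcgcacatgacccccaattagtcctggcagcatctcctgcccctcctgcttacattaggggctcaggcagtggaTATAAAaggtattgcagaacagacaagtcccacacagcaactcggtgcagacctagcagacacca

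Both strands were searched for TGTGGT, the core bound by RUNX factors, TAATTA, a core of homeodomain factors such as Dlx5, GGGCGG, the GC box of Sp-family factors, and TATAAA, the TATA box. The RUNX core was present in the windows of Mepe and Bglap, 2 of 6, and in 17.3% of 33469 RefSeq windows of the same length. In Bglap it lay on the opposite strand (ACCACA) with its first base at position -118. In Mepe it began at -112, and Mepe also held the only TAATTA of the 6 windows, at -238 (5.36% of all windows). The letters TATAAA were found in Ibsp, Spp1 and Bglap, 3 of 6, against 14.2% of all windows, at unlike positions. In Ibsp the match was inverted (TTTATA, first base at -39), in Spp1 it began at -204 and in Bglap at -15. No GC box occurred in the 6 windows (33.1% of all windows). An inverted TATA box in the Ibsp promoter and a Runx2 element in the osteocalcin promoter are known from work in rat. A match is a description of letters, and binding was not measured. Positions count from the annotated start.

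Osteocalcin (Bglap, ENSRNOG00000019607), the vitamin K-dependent calcium-binding protein of mature osteoblasts, rose modestly. It had 531, 587 and 528 CPM in loaded libraries, against 440.1, 380.5 and 445 CPM in controls. Control library 2 was the lowest and loaded library 2 the highest. The rise was 0.38 ± 0.064 on the log2 scale, 1.30-fold (adjusted p = 0.00118, edgeR), and it measured 0.26 with both replicate 2 libraries left out, still past the threshold. Of 7 genes of vitamin K-dependent carboxylation, which makes osteocalcin able to bind calcium, 1 rose and 2 fell. Over all genes tested 17.9% rose and 18.0% fell. Vkorc1, the vitamin K epoxide reductase, rose by 0.37 ± 0.085 log2, whereas Gas6, another carboxylated protein, fell by 0.21 ± 0.039 and the quinone reductase Nqo1 fell by 0.36 ± 0.091.

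Phex and Smpd3, which act on phosphate and mineral in bone cells, rose by more than Bglap. Phex (ENSRNOG00000023440), the endopeptidase whose loss causes X-linked phosphate wasting in human and mouse, had 5.78, 4.42 and 6.58 CPM in loaded libraries, against 2.66, 2.22 and 2.12 CPM in controls. Loaded library 2 was the lowest of its group, and all 3 remained above every control. The rise of Phex was 1.26 ± 0.20 log2, 2.40-fold (adjusted p = 0.000187, edgeR). Smpd3 (ENSRNOG00000000257), a neutral sphingomyelinase that is needed for normal bone mineralisation in mouse, had 47.0, 48.1 and 46.7 CPM in loaded libraries, against 30.2, 31.2 and 32.5 CPM in controls. Its libraries varied little within a group, and it rose by 0.59 ± 0.060 log2, 1.51-fold (adjusted p = 1.89e-06, edgeR).

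Other genes of mineralisation went both ways. Of 20 tested enzymes, transporters and annexins of mineralisation, 5 rose and 3 fell, with a median of 0.06. That share of calls was near the 35.8% of all genes tested. Tissue-nonspecific alkaline phosphatase (Alpl), which clears the inhibitor pyrophosphate, was 135, 123 and 126 CPM in loaded libraries, against 223, 242 and 223 CPM in controls. It moved against the bone matrix genes, by -0.84 ± 0.050 log2 (adjusted p = 6.98e-09, edgeR). Phospho1, the phosphatase that works inside matrix vesicles, rose to 99.3, 101.9 and 107 CPM in loaded libraries, against 71.8, 69.4 and 71.0 CPM in controls. The sodium-calcium exchanger Slc8a3 rose by 1.24 ± 0.17, and the annexin genes Anxa2 and Anxa6 fell by 0.62 ± 0.034 and 0.23 ± 0.042. Fam20c, the kinase that phosphorylates the SIBLING proteins, stood at 36.7 ± 1.87 CPM in loaded and 37.2 ± 1.17 CPM in control libraries (SD, n = 3 each; adjusted p = 0.855, edgeR).

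Ifitm5 (ENSRNOG00000014923), a membrane protein gene of osteoblasts also known as bone-restricted IFITM-like, had the largest fold change of the 10, close to that of Ibsp. It stood at 7.19, 8.38 and 8.38 CPM in loaded libraries, against 2.92, 2.66 and 2.68 CPM in controls. These levels rest on 225 to 289 counts in a loaded library and 91 to 105 counts in a control library. The log2 fold change was 1.53 ± 0.16, 2.90-fold (adjusted p = 2.48e-06, edgeR). Of 6 tested genes in a list of other IFITM genes and Bst2, an antiviral gene, 2 rose and 2 fell. Ifitm1, Ifitm2 and Ifitm3 are known as interferon-inducible antiviral genes. Ifitm3 and Ifitm10 rose by 0.48 ± 0.064 and 1.28 ± 0.30, and Ifitm1 and Ifitm6 fell by 1.04 ± 0.059 and 1.23 ± 0.047 on the log2 scale. IFITM genes are similar in sequence, and reads may be split between copies.

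The 2 transcription factor genes among the 10 had low levels. Sp7 (ENSRNOG00000014082), or osterix, which osteoblasts need in order to form, had 4.28, 4.66 and 4.76 CPM in loaded libraries, against 2.15, 2.28 and 2.38 CPM in controls. The groups were well apart, and Sp7 rose by 1.01 ± 0.19 log2, 2.01-fold (adjusted p = 0.000673, edgeR). Dlx5 (ENSRNOG00000010905), a homeodomain factor that acts upstream of Sp7, had 7.70, 8.87 and 6.47 CPM in loaded libraries, against 6.10, 4.15 and 5.75 CPM in controls. Loaded library 3 was only a little above control library 1. The rise of Dlx5 was 0.52 ± 0.18 log2 (adjusted p = 0.0306, edgeR), and it measured 0.37 without control replicate 2 (adjusted p = 0.144) and 0.41 without loaded replicate 2 (adjusted p = 0.119), where the call was lost.

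Among 20 other tested transcription factors of the osteoblast lineage 7 rose and 1 fell, with a median of 0.31. For comparison, 35.8% of all genes tested were called, 17.9% as rises and 18.0% as falls. Runx2, the factor that commits cells to the osteoblast lineage, had 18.6, 20.1 and 21.8 CPM in loaded libraries, against 19.9, 19.2 and 21.4 CPM in controls. The groups overlapped fully (0.00 ± 0.092 log2, adjusted p = 0.998, edgeR). Creb3l1, a stress-linked factor that drives type I collagen in mouse osteoblasts, rose by 1.29 ± 0.11 log2, Lef1, a Wnt effector, by 0.66 ± 0.11, and Atf4 by 0.36 ± 0.039. Nfatc1, better known from osteoclasts, fell by 0.41 ± 0.12 (adjusted p = 0.0138, edgeR), and its call was lost without control replicate 2 and without both replicate 2 libraries, where the change was -0.24 in the second case (adjusted p = 0.137).

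**Figure D3:**
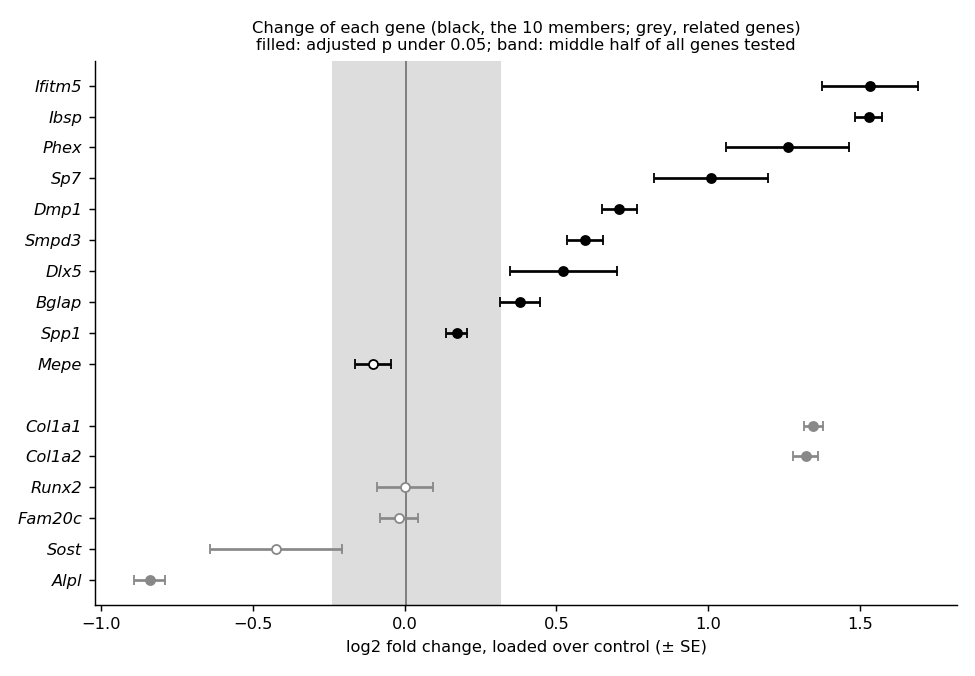
Log2 fold change, loaded over control, with its SE, for the 10 genes in black and for related genes in grey. Filled points have an adjusted p under 0.05 and the grey band spans the quartiles of all genes tested, -0.24 to 0.32. Mepe, Runx2, Fam20c and Sost are open points and Alpl lies at -0.84.

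Type I collagen, the scaffold on which these proteins act, rose more than most of the 10 genes. Col1a1 had 3889, 3934 and 3793 CPM in loaded libraries, against 1477, 1554 and 1537 CPM in controls, 2.54-fold, and Col1a2 rose 2.50-fold. Set against Col1a1 in the same library, a ratio that no library scaling touches, 7 of the 10 genes were lower in every loaded library than in any control, 1 was higher and 2 overlapped. Among all other genes tested 87.2% were lower against Col1a1 in this way and 1.33% were higher, so a fall against Col1a1 was the rule and not a property of these genes. Ibsp was the one above, with 13.3, 12.8 and 12.6 counts per 100 Col1a1 counts in loaded libraries, against 11.4, 11.5 and 11.2 in controls. Mepe had 1.10, 1.20 and 1.16 counts per 100 Col1a1 counts in loaded libraries, against 3.33, 3.03 and 3.07 in controls, and Spp1 had 21.4, 21.4 and 21.9, against 51.8, 46.5 and 47.9. Bglap had 13.7, 14.9 and 13.9 in loaded libraries, against 29.8, 24.5 and 28.9 in controls.

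The mean log2 ratio to Col1a1, loaded minus control, was 0.18 for Ibsp, -1.45 for Mepe, -1.18 for Spp1, -0.96 for Bglap, -0.81 for Dlx5, -0.75 for Smpd3, -0.64 for Dmp1 and -0.34 for Sp7. In these 8 genes the two-sided exact permutation p was 0.1, the smallest that 3 libraries against 3 can give, and 0.125 after Benjamini-Hochberg adjustment over the 10 genes. Ifitm5 and Phex overlapped, with differences of 0.19 (exact permutation p = 0.2) and -0.10 (exact permutation p = 0.8). With 3 libraries against 3 this exact test cannot pass 0.05.

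**Figure D4:**
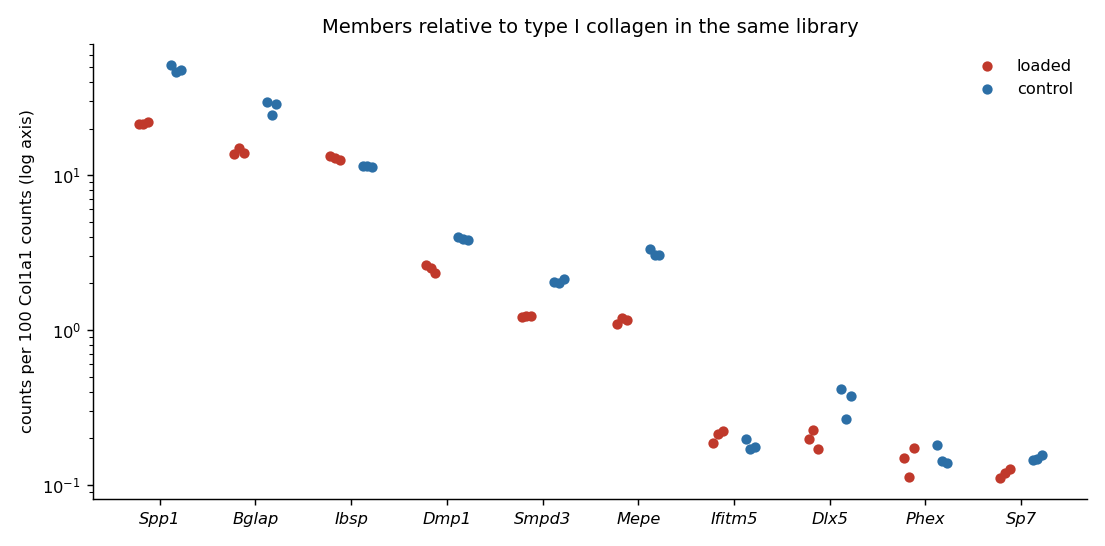
Counts of each of the 10 genes per 100 Col1a1 counts of the same library, on a log axis, with loaded libraries in red at the left and control libraries in blue at the right of each gene. The loaded points of Spp1, Bglap, Dmp1, Smpd3, Mepe, Dlx5 and Sp7 lie below their controls and those of Ibsp above.

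Per gene length the 10 genes spanned about 3 orders of magnitude. In FPKM, which the authors scaled by library without TMM, Bglap was highest with 1067 to 1137 in loaded libraries, against 732 to 823 in controls. Spp1 followed with 541 to 563 FPKM in loaded libraries, against 452 to 471 in controls, and Ibsp with 244 to 266, against 78.7 to 86.9. Dmp1 and Mepe changed places, since Dmp1 had 32.0 to 37.4 FPKM in loaded libraries, against 19.3 to 20.6 in controls, and Mepe 25.9 to 27.1, against 25.8 to 27.0. Below them came Ifitm5 with 17.6 to 20.3 FPKM in loaded libraries, against 5.97 to 6.47 in controls, and Smpd3 with 9.02 to 9.28, against 5.41 to 5.83. Dlx5 had 4.57 to 6.02 FPKM in loaded libraries, against 2.79 to 3.94 in controls, Sp7 had 3.06 to 3.32, against 1.33 to 1.499, and Phex was lowest at 0.986 to 1.53, against 0.449 to 0.564. Within a group no 2 neighbours in this order overlapped between libraries.

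Beyond the 10 genes, bone matrix and type I collagen assembly genes rose in 21 of 25 tested cases and none fell, with a median of 1.01. Osteonectin (Sparc), a collagen- and mineral-binding protein, had 2632, 2548 and 2549 CPM in loaded libraries, against 1184, 1232 and 1209 CPM in controls, and the collagen chaperone gene Serpinh1 rose by 1.05 ± 0.045 log2. In the osteocyte list 9 of 19 rose and 1 fell, with a median of 0.37. Both lists are to be read beside the 17.9% of all genes tested that rose and the 18.0% that fell. The calls with the smallest adjusted p were genes that other skeletal cells also use: the gap junction gene Gja1, the parathyroid hormone receptor Pth1r, the membrane protease Mmp14 and the matrix protein Tnc, which rose by 0.96, 0.92, 0.93 and 0.47 (SE 0.049, 0.065, 0.076 and 0.051). The remaining rises were those of the homeobox genes Irx5 (1.28 ± 0.20) and Irx3 (0.91 ± 0.16), of Pdpn (0.78 ± 0.14), the podoplanin gene of early osteocytes, of Ptprz1 (0.52 ± 0.14) and of the receptor gene Fgfr1 (0.37 ± 0.076). The call of Ptprz1 was lost without both replicate 2 libraries. Sclerostin (Sost), the Wnt inhibitor secreted by mature osteocytes, had 2.11, 2.28 and 3.07 CPM in loaded libraries, against 3.12, 3.62 and 3.30 CPM in controls, and missed the threshold (-0.42 ± 0.22, adjusted p = 0.15, edgeR). Capg, an actin-capping gene on the same list, fell by 0.17 ± 0.045, and without control replicate 1 or with library totals its call was lost (highest adjusted p = 0.175).

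Receptor genes of the SIBLING proteins were mixed. Of 9 tested genes of integrin chains and Cd44, 1 rose and 3 fell, a share of calls near the 35.8% of all genes. The integrin chain gene Itgb3 fell to 21.2, 20.2 and 18.6 CPM in loaded libraries, against 32.1, 36.4 and 33.1 CPM in controls. Itgb1 and Itga5 fell by 0.26 ± 0.044 and 0.38 ± 0.072, and Itgb6, a chain of epithelial integrins, rose by 1.46 ± 0.18 log2.

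The 5 genes with the pattern most like Ibsp, by Pearson correlation of log2 CPM over the 6 libraries among 10578 genes with a mean of at least 5 CPM, were the muscle calcium channel gene Cacna1s, a feature without a symbol, Zfp91, Sparc and Col1a1, all with a correlation over 0.99. The 6 points share 2 groups, and 1127 genes had a correlation above 0.95, so the measure mostly restates the group difference. Among the 10 genes the correlation with Ibsp was 0.99 for Dmp1, Smpd3, Sp7 and Ifitm5, 0.95 for Spp1, 0.94 for Phex, 0.90 for Bglap, 0.77 for Dlx5 and -0.75 for Mepe.

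Markers of other tissues moved between the groups as well, while 17.9% of all genes tested rose and 18.0% fell. All 13 tested skeletal muscle markers rose, and their sum was 2.01% to 2.03% of counts in loaded and 0.798% to 0.817% in control libraries. Hypertrophic chondrocyte markers rose in 4 of 8 cases with none falling, among them type X collagen (Col10a1), which had 103, 93.6 and 106 CPM in loaded libraries, against 18.3, 21.2 and 22.9 CPM in controls. This list summed to 0.107% to 0.116% of counts in loaded and 0.0896% to 0.0946% in control libraries. Most of that sum was Mmp13, which was not called, with means of 857 CPM in loaded and 838 CPM in control libraries. Osteoclast markers rose in 5 and fell in 2 of 13 cases (the falls were Nfatc1 and Itgb3, which stand in other lists as well) and summed to 0.278% to 0.292%, against 0.197% to 0.199%. The largest part of the osteoclast sum was Car2, also not called, with means of 1038 CPM in loaded and 1032 CPM in control libraries. Chondrocyte markers rose in 8 and fell in 2 of 14 cases.

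Lists of marrow, fat and blood cells were lower or mixed, to be read beside the 17.9% of all genes tested that rose and the 18.0% that fell. Neutrophil and marrow myeloid markers fell in 9 and rose in 2 of 14 cases and summed to 3.97% to 4.61% of counts in loaded libraries, against 5.58% to 5.93% in controls. Macrophage markers, of cells that also make osteopontin, fell in 5 and rose in 4 of 10 cases, with Marco at 0 in all libraries. Their sums were 1.15% to 1.22% in loaded and 1.502% to 1.58% in control libraries. Most of each sum was Lyz2, with means of 10745 CPM in loaded and 15059 CPM in control libraries. The whole list had 11457 to 11663 CPM and 15485 to 15930 CPM. The 5 falls included Lyz2 and Mrc1. The 4 rises were C1qa, C1qb, C1qc and Cd68, and the call of Cd68 was lost in 4 of 16 alternatives. Adipocyte markers fell in 7 of 9 cases with none rising, at 0.0377% to 0.0409% in loaded and 0.0495% to 0.0512% in control libraries. Erythroid markers rose in 1 and fell in 4 of 10 cases. Endothelial markers rose in 1 and fell in 3 of 9 cases, at 0.0185% to 0.0200% in loaded and 0.0187% to 0.0203% in control libraries. Fibroblast and synovial markers rose in 2 and fell in 2 of 10 cases, at 0.0199% to 0.0214% and 0.0156% to 0.0166%. The part of these tissues in the rise of the 10 genes was not tested.

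**Figure D5:**
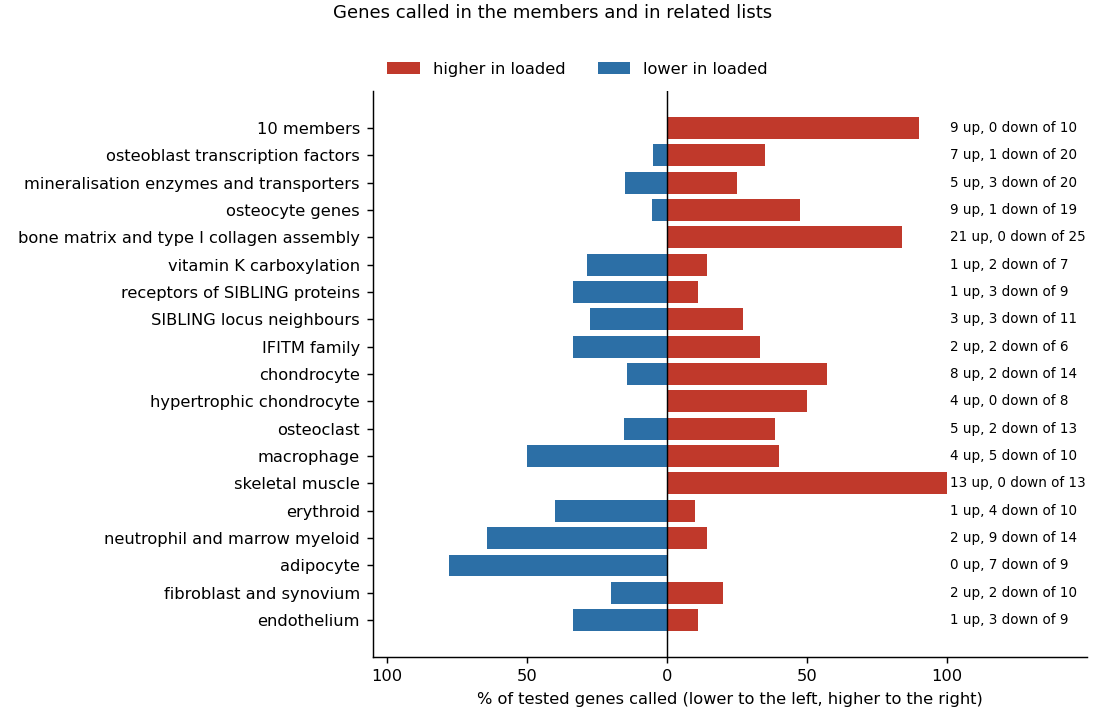
Percentage of tested genes called higher (red, to the right) or lower (blue, to the left) in loaded libraries at an adjusted p under 0.05, for the 10 genes and for 18 related lists, with counts at the right edge. Bone matrix and type I collagen assembly (21 of 25 higher) stands nearest to the 10 genes (9 of 10 higher), and skeletal muscle has 13 of 13 higher.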

How the data were processed

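Per the labels' protocols, TRIzol was used for RNA of the right knee cartilage, and mRNA libraries were made from 1 µg with a Hieff NGS Ultima Dual-mode kit. The deposited table held whole-number counts per gene, raw per the file headers, beside FPKM values that the authors computed per library. HISAT2, DESeq2 (neither with a version) and the mouse build mm10 appear in the submitters' processing notes. The table's identifiers are rat Ensembl genes, so the build is uncertain and no coordinates of the data are given. The sources used here give no counting tool, annotation or strand setting, so reads of overlapping antisense genes cannot be told apart. Of 26991 lines, 10 were spilled annotation text and were dropped. Every column used had a sample.

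Counts were tested with edgeR 4.0.16 in R 4.3.3 (filterByExpr, TMM, robust quasi-likelihood F test, no replicate block, Benjamini-Hochberg over 16447 genes). Intervals are the fold change ± a normal 95% quantile times its SE. SE is the absolute log2 fold change over the square root of F. CPM used TMM-scaled library sizes. FPKM served only for levels per length. Log2 CPM for correlations had a prior count of 2. A count of 0 was taken to allow 3 counts, which covers counting error only. Alternatives were DESeq2 1.42.0, limma-voom (limma 3.58.1), other scalings, filters and thresholds, each library left out, both replicate 2 libraries left out, and a replicate block.

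The members and the 18 context lists were chosen with earlier results of these data known. Of 251 listed symbols 236 matched a gene. Named genes were the 10 members, up to 4 called genes per list with the smallest adjusted p, those called against their list, the 5 genes most like Ibsp, and Col1a1, Col1a2, Col2a1, Runx2, Alpl, Fam20c, Dspp and Sost. Marco, Irx5, Irx3, Pdpn, Ptprz1, Fgfr1, Mmp13 and Car2 were named after their values were seen. A gene that the rule would name is not reported here. No protein sequence was used here.

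The edgeR step was tested on simulated data drawn from these loaded and control libraries (16447 genes, 50 changed per fold size). It called 14% at 1.25-fold, 66% at 1.5-fold, 88% at 2-fold and 98% at 4-fold, with 12 calls among 16247 unchanged genes. The changed genes were drawn only from those with a mean of about 50 or more counts a library. The rates do not cover genes with fewer counts. A far smaller share of genes was changed in the simulation than the 35.8% called in the data. Adjustment over all genes was therefore stricter there, and the rates do not carry over directly to these data.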

Additional observations from a re-analysis of the deposited data

How the results depend on the processing

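Under 16 alternatives of tool, scaling, filter and libraries, 9 of the 10 genes kept their direction and their side of the threshold in all 16. Dlx5 kept its direction and lost its call in 7 of 16. Its log2 fold change was 0.51 with limma-voom (adjusted p = 0.0501) and 0.53 with a replicate block (adjusted p = 0.0635). It ranged from 0.37 without control replicate 2 to 0.63 without loaded replicate 3 when one library was left out, and was 0.26 without both replicate 2 libraries (adjusted p = 0.324). The count of risen genes among the 10 was 8 or 9 throughout, also at thresholds of 0.01 and 0.1, and none fell in any alternative. Mepe ranged from -0.16 to -0.03 (adjusted p 0.088 to 0.738).

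The replicate numbers in the titles are not said to pair animals, so the main fit had no block. Same-numbered loaded and control libraries had correlations of deviations of -0.0139, 0.0462 and 0.0207. Other pairs ran from -0.0464 to 0.0293, and these values do not settle whether the libraries are paired. With the block 2655 genes rose and 2694 fell, against 2941 and 2954 without it. With library totals in place of TMM there were 3578 rises and 2074 falls (63.3% rises, compared with 49.9% under TMM), and the median of all genes moved by 0.07. Counts in the context lists moved by more than 1.5 times in 25 of 648 cases, all of them counts of 4 or fewer genes as reported. The ratios to Col1a1 kept their sign with Col1a2 in its place. That of Phex ran from -0.24 to 0.07 when one library was left out. Sp7, Phex, Ifitm5 and Dlx5 rest on fewer than 300 counts a library, which limits their precision.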
